A study of Mus musculus with 6 samples.

Results

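The interferon response genes described here are 51 genes taken by name from a table of 54532 mouse genes: receptors of interferon, the transcription factors that act below them, sensors of foreign nucleic acid and the antiviral effectors that interferon induces. The list was given by gene name and its rule used no measured value, but it was chosen with earlier results of these data known. Expression was measured by RNA-seq in endothelial cells sorted from brain as CD31+, CD45- and PDGFRb-. All mice were heterozygous for Df(h22q11)/+, a mouse model of the human 22q11.2 deletion, and were 12 to 16 weeks old. The untreated group received base chow, and the bezafibrate group received chow enriched with 0.5% bezafibrate, a fibrate drug that activates PPAR nuclear receptors, for 4 weeks. Each library pooled 3 brains from mice of the same sex and chow. The untreated libraries were named F_1, F_2 and M_1 and the bezafibrate libraries F_1, M_1 and M_2, with F for female and M for male, and values are given in that order. Wild-type mice were not analysed here, so the values compare the chows in mice that all carry the deletion and say nothing of the deletion itself.

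Type I interferon binds a receptor made of IFNAR1 and IFNAR2, and interferon gamma binds a receptor that holds IFNGR1. The receptors' kinases phosphorylate STAT proteins. STAT2 and IRF9 are parts of ISGF3, which binds the interferon-stimulated response element (ISRE). A separate element, the gamma-activated site (GAS), serves interferon gamma. Brain endothelial cells express these receptors and keep a tonic level of interferon-induced transcripts, which include the guanylate-binding proteins (GBPs), the IFIT proteins and the IFITM proteins.

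Promoter sequences are shown for members whose start-proximal DNA held the ISRE core, because these are the letters that ISGF3 and the IRFs read. RefSeq promoter windows (GRCm38.p6, 250 bases before to 50 after the gene start) matched 39 of the 51 members, in 44 windows. The ISRE core was searched as GAAANNGAAA or, on the other strand, TTTCNNTTTC, with overlapping matches allowed. It was present in the windows of 20 of the 39 members (51.3%). Of all 32851 windows, 3.44% held it, against 47.7% of the members' windows. The GAS core, TTCNNNGAA, which reads the same on both strands, was present in 12 of the 39 members (30.8%). It was found in 27.3% of the members' windows and 8.30% of all windows. The stretches below run 5′ to 3′ on the gene's strand, with the ISRE core in capitals and flanks in lower case. Overlapping cores appear as a single run of capitals.
Isg15 (chr4:156200855-156200916, minus strand): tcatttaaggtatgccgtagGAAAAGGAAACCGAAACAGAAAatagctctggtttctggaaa
Ifit1 (chr19:34640765-34640833, plus strand): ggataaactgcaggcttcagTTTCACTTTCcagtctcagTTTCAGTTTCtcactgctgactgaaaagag
Ifit3 (chr19:34583353-34583436, plus strand): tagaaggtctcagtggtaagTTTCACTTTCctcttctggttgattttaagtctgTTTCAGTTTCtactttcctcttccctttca
Ifit3b (chr19:34607749-34607832, plus strand): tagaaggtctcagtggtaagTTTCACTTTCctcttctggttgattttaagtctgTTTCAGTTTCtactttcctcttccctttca
Rsad2 (chr12:26456543-26456592, minus strand): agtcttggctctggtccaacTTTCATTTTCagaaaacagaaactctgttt
Gbp5 (chr3:142496749-142496798, plus strand): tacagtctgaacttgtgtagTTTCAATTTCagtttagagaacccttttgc
Gbp7 (chr3:142530263-142530312, plus strand): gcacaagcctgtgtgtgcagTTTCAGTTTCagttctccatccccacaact
Bst2 (chr8:71537567-71537622, minus strand): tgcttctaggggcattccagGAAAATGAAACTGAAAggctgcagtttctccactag
Isg15 held 3 overlapping cores and Bst2 held 2. The stretches of the neighbouring genes Ifit3 and Ifit3b were identical over 84 of 84 bases, and their transcripts also share sequence: 41.1% of the 75-base windows of Ifit3 occur in Ifit3b and 35.7% of those of Ifit3b occur in Ifit3, so reads could be split between them. The windows of Cmpk2, Irf7, Ifi35, Ifnar1 and Ifitm1, which appear below, held no ISRE core as spelled here. A match describes letters in this window and is not a bound site.

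Depth was even, with 16858130 to 20228619 reads recovered per library, and 11060 to 11387 genes reached an FPKM of 1 (fragments per kilobase of gene length, relative to the size of the library). Xist, Ddx3y and Eif2s3y fitted the labelled sex in all 6 libraries. Untreated M_1 and bezafibrate F_1 stood apart on the first principal component (39.3% of the variance), at 30.3 and 24.4 against -22.6 to 1.62 in the other 4 libraries. The 12 endothelial markers were all detected, with a summed level of 7800 to 11321 FPKM in untreated and 6909 to 10842 FPKM in bezafibrate libraries. The 10 leukocyte markers summed to 5.68 to 11.1 and 7.18 to 8.79 FPKM, nearly all of it Laptm5. Ncr1, Ly6g, S100a8 and Cd52 were listed at 0 in every library, and Ptprc, which encodes CD45, reached at most 0.0349 FPKM. The 12 microglial markers summed to 29.9 to 37.8 and 23.9 to 34.5 FPKM, and the 6 macrophage markers to at most 1.11 FPKM. Of the plasmacytoid dendritic cell markers, Siglech reached at most 0.566 FPKM and Ccr9 at most 0.137 FPKM, and the remaining one, Bst2, is itself a member. Markers of the vessel wall and of myelin were higher, with the pericyte sum at 189 to 335 FPKM in untreated and 182 to 259 FPKM in bezafibrate libraries and the oligodendrocyte sum at 93.5 to 153 and 90.9 to 102 FPKM. The 6 markers of choroid plexus and ependyma, nearly all of their sum from Ttr, stood at 403, 357 and 386 FPKM in untreated and 410, 556 and 938 FPKM in bezafibrate libraries, so the groups did not overlap. The part of these cells in the members' levels was not tested.

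Of the 51 members, 48 were measured, which means that 3 or more libraries reached an FPKM of 1, as held for 11277 genes in all. The measured members had 39 to 7492 reads in any library. The other 3 were low throughout. Zbp1, a sensor of Z-form nucleic acid, stood at 1.96, 0.827 and 1.08 FPKM in untreated and 0.205, 0.906 and 0.754 FPKM in bezafibrate libraries. Gbp6 lay between 0.308 and 0.743 FPKM and shares 67.3% of its 75-base windows with Gm43302, and the antiviral GTPase Mx1 lay between 0.0497 and 0.250 FPKM, with 4 to 17 reads.

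Bezafibrate changed no measured interferon response gene past the threshold. The limma fit on log2(FPKM + 1), with Benjamini-Hochberg adjustment across 11277 genes, called 0 of 48 members (adjusted p = 0.999 for each), against a background of 0.00887% of genes called, a single gene that is not a member. Limma-voom on recovered reads also called 0 members, with 3 at an unadjusted p under 0.05. At an unadjusted p under 0.05 there were 2 of 48 members (4.17%), against 4.19% of all genes: 1 higher (Ifi35; background 2.10%) and 1 lower (Bst2; 2.08%). The groups did not overlap for 3 of 48 members (6.25%), against 8.42% of all genes: 1 higher (background 4.29%) and 2 lower (4.13%). These shares were near the background. The median log2 difference of the members (bezafibrate minus untreated) was -0.01, with 23 above 0 and 25 below, and the quartiles were -0.12 and 0.18. The median of all genes was -0.01. Rescaling FPKM to TPM, which sets every library to the same sum, moved the median of all genes to 0.10 and that of the members to 0.10, so that 33 members then lay above 0.

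**Figure D1:**
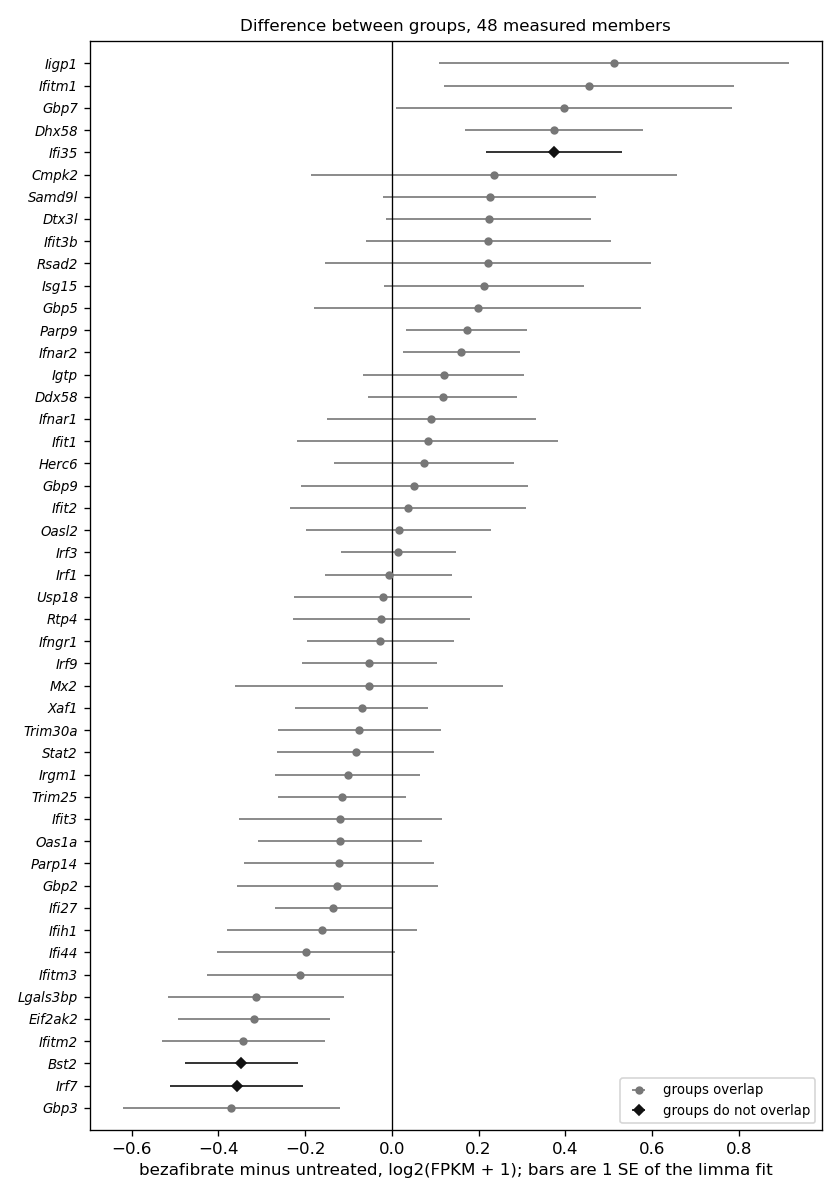
Log2 difference of each of the 48 measured members, bezafibrate minus untreated, on the log2(FPKM + 1) scale, with bars of 1 SE of the limma fit. Differences run from -0.37 (Gbp3) to 0.51 (Iigp1), and the 3 members drawn as diamonds are those whose groups did not overlap.

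The 3 members without overlap were Bst2, Irf7 and Ifi35. In GRCm38 coordinates, Bst2 (ENSMUSG00000046718) lies at chr8:71534255-71537456, Irf7 (ENSMUSG00000025498) at chr7:141262706-141266481 and Ifi35 (ENSMUSG00000010358) at chr11:101448407-101458698. Bst2 encodes tetherin, a membrane protein that holds budding virus particles at the cell surface. It stood at 99.1, 86.4 and 84.9 FPKM in the untreated and at 67.6, 70.4 and 73.7 FPKM in the bezafibrate libraries. Each bezafibrate library lay below each untreated library, with means of 90.2 ± 7.81 and 70.5 ± 3.05 FPKM (SD, n = 3), and a log2 difference of -0.35 (SE 0.130). Irf7, the factor that amplifies type I interferon induction, stood at 35.3, 28.05 and 32.4 FPKM in untreated and 25.9, 21.2 and 27.1 FPKM in bezafibrate libraries. Its groups were separated by less than 1 FPKM, and the log2 difference was -0.36 (SE 0.154). Ifi35, an interferon-induced leucine zipper protein, stood at 22.3, 25.3 and 22.5 FPKM in untreated and 27.5, 27.9 and 37.0 FPKM in bezafibrate libraries. Bezafibrate M_2 was the highest, and the log2 difference was 0.37 (SE 0.157). The annotation places the antisense gene Gm11626 over 16.8% of the exon bases of Ifi35, and whether reads were counted by strand is not given in the sources. After rescaling to TPM the groups of Bst2 and Irf7 overlapped, while Ifi35 and Parp9 were the members higher without overlap. The sign of each of the 3 differences was kept in 17 of 17 alternative fits, at -0.41 to -0.23 for Bst2, -0.51 to -0.25 for Irf7 and 0.24 to 0.50 for Ifi35. Fits that left out or reweighted libraries could not change the sign, because these genes were picked for groups that did not overlap. With sex as a covariate or with the replicate block, limma placed 0 members under an unadjusted p of 0.05. In bulk samples fewer cells of a type and less RNA per cell cannot be told apart.

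**Figure D2:**
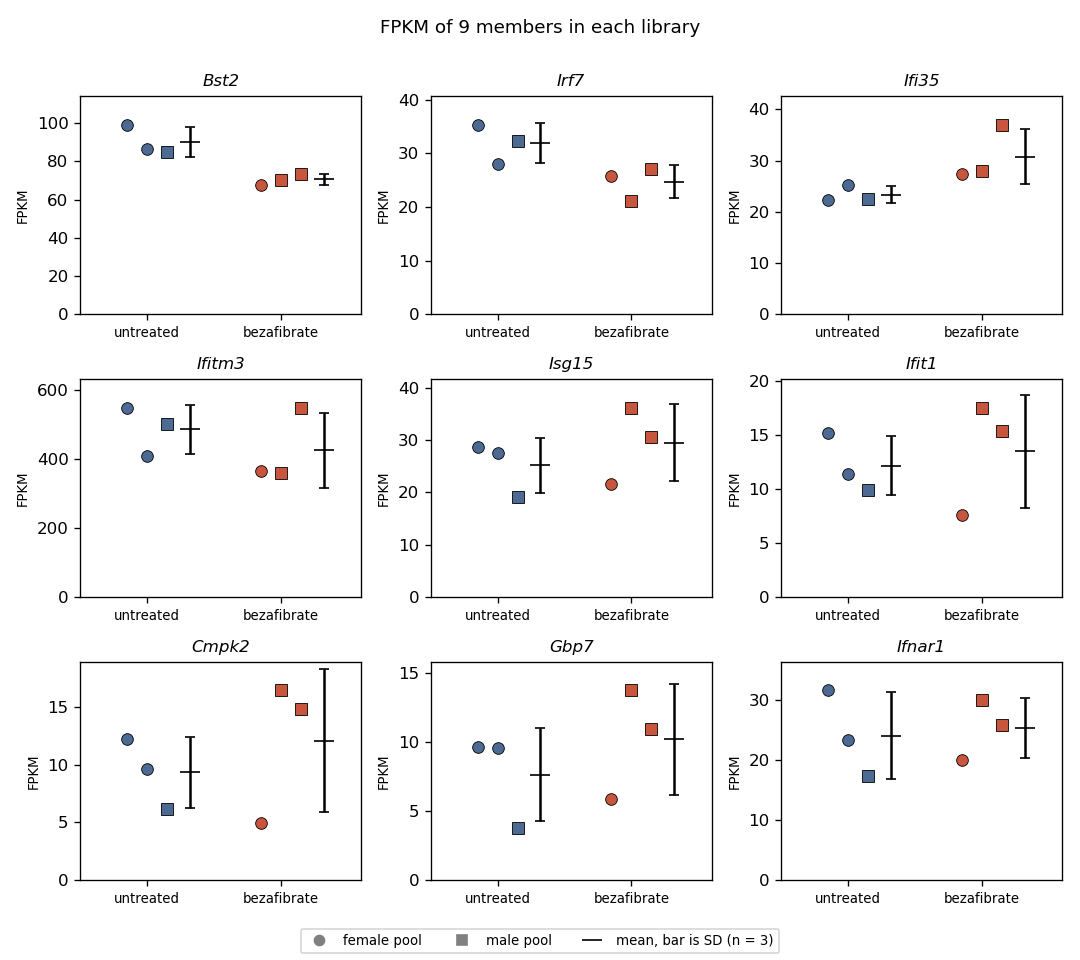
FPKM of 9 members in each library, with circles for female and squares for male pools and the mean with its SD (n = 3) beside them. The groups are apart for Bst2, Irf7 and Ifi35, whereas for Isg15, Ifit1, Cmpk2, Gbp7 and Ifnar1 untreated M_1 and bezafibrate F_1 are each the lowest of their group.

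Among the receptors, Ifnar1 stood at 31.6, 23.3 and 17.3 FPKM in untreated and 20.02, 30.03 and 25.8 FPKM in bezafibrate libraries. The groups overlapped across most of their range, with a log2 difference of 0.09 (SE 0.241). Ifnar2 lay between 21.5 and 28.3 FPKM and Ifngr1 between 12.3 and 17.7 FPKM over the 6 libraries, so that all 3 receptor genes were present in each library.

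The transcription factors varied least between libraries, with a median ratio of 1.35 between the highest and the lowest library against 1.75 over all measured members. Stat2 stood at 18.6, 15.9 and 19.0 FPKM in untreated and 19.6, 18.3 and 12.97 FPKM in bezafibrate libraries, and its groups overlapped. Irf9, the DNA-binding part of ISGF3, stood at 19.8, 21.2 and 17.2 FPKM in untreated and 15.8, 20.7 and 19.8 FPKM in bezafibrate libraries, a difference of -0.05 (SE 0.156). Irf3, the factor activated by the nucleic acid sensors, and Irf1 had log2 differences of 0.01 and -0.01. Irf7 alone of these 5 genes had groups that did not overlap on the FPKM scale.

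The nucleic acid sensors had differences of -0.32 to 0.37. Dhx58, which encodes LGP2, a regulator of the RNA sensors, stood at 2.33, 2.69 and 1.45 FPKM in untreated and 2.60, 2.93 and 3.63 FPKM in bezafibrate libraries. Untreated M_1 was the lowest, and bezafibrate F_1 lay within the untreated range. Eif2ak2, the double-stranded RNA kinase PKR, stood at 6.94, 8.65 and 5.93 FPKM in untreated and 4.92, 6.56 and 5.13 FPKM in bezafibrate libraries, a difference of -0.32 (SE 0.176). The RNA sensors Ddx58 (RIG-I) and Ifih1 (MDA5) had differences of 0.12 and -0.16.

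In the ISG15 system, Isg15, a ubiquitin-like modifier, stood at 28.7, 27.5 and 19.2 FPKM in untreated and 21.7, 36.2 and 30.6 FPKM in bezafibrate libraries. Usp18, the protease that removes ISG15 and restrains IFNAR signalling, stood at 13.3, 13.2 and 8.15 FPKM in untreated and 9.72, 11.5 and 12.2 FPKM in bezafibrate libraries. Untreated M_1 and bezafibrate F_1 were the lowest of their groups for both genes and for Herc6, as they were for 20.0% of all genes. Herc6 is an E3 ligase of the same family as the human ISG15 ligase. The differences of the 3 genes ran from -0.02 to 0.21.

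The antiviral effectors varied over the 6 libraries of both chows, with a median ratio of 2.37 between the highest and the lowest. The median ratio of all genes tested was 1.69. Ifit1, which binds foreign RNA ends, stood at 15.2, 11.4 and 9.90 FPKM in untreated and 7.59, 17.5 and 15.3 FPKM in bezafibrate libraries. Ifit3 stood at 32.1, 24.99 and 18.6 FPKM in untreated and 18.5, 21.8 and 28.6 FPKM in bezafibrate libraries. Rsad2, which encodes viperin, stood at 14.5, 6.56 and 5.09 FPKM in untreated and 6.14, 11.1 and 12.1 FPKM in bezafibrate libraries, a ratio of 2.85 between the highest and the lowest library. The treatment difference of the 10 measured effectors had a median of 0.06, with 7 above 0 and 3 below. Bezafibrate F_1 was the lowest library of its group for all 10, and for 4173 of the 11277 genes tested. Cmpk2, the mitochondrial nucleotide kinase encoded beside Rsad2, is described with the libraries below. Of the other effectors, the RNA-binding Ifit2 and Ifit3b had differences of 0.04 and 0.22. The oligoadenylate synthetase family genes Oas1a and Oasl2 had differences of -0.12 and 0.02, and the restriction factor Samd9l of 0.23. Mx2, a gene of the MX GTPase family that is annotated as a polymorphic pseudogene, had a difference of -0.05. Oas1a shares 47.6% of its 75-base windows with Oas1g, and its level is uncertain to that extent.

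The membrane factors held the most abundant member. Ifitm3, which blocks the fusion of viruses with endosomes, stood at 550, 408 and 502 FPKM in untreated and 366, 360 and 549 FPKM in bezafibrate libraries. Bezafibrate M_2 was as high as untreated F_1, and the difference was -0.21 (SE 0.213). Ifitm2 stood at 119, 96.1 and 144 FPKM in untreated and 94.7, 80.4 and 105 FPKM in bezafibrate libraries, a difference of -0.34 (SE 0.188), and 42% of its 75-base windows are shared with Gm45717. Ifitm1, the least abundant of the 3 at 4.45, 6.26 and 1.92 FPKM in untreated and 4.42, 5.55 and 7.39 FPKM in bezafibrate libraries, had the opposite sign, 0.45 (SE 0.335). These signs, none of them called, were the same after rescaling to TPM, quantile normalisation and limma-voom.

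The guanylate-binding proteins are GTPases that attack the vacuoles of intracellular pathogens. Gbp3, the most abundant, stood at 56.6, 35.9 and 32.3 FPKM in untreated and 24.0, 37.4 and 33.2 FPKM in bezafibrate libraries. Untreated F_1 was the highest, and the difference, -0.37 (SE 0.250), was the lowest of all measured members. Gbp2 stood at 32.6, 29.0 and 22.7 FPKM in untreated and 18.2, 28.4 and 31.6 FPKM in bezafibrate libraries. Gbp5, Gbp7 and Gbp9 had differences of 0.20, 0.40 and 0.05. Over the 5 measured GBPs the treatment differences ran from -0.37 to 0.40 with a median of 0.05. Untreated M_1 and bezafibrate F_1 were the lowest libraries of their groups for all 5, against 20.0% of all genes. Of the related IRG GTPases, Iigp1 stood at 5.55, 2.63 and 1.55 FPKM in untreated and 2.53, 6.89 and 5.32 FPKM in bezafibrate libraries, a 4.43-fold range. Its difference of 0.51 (SE 0.403) was the highest of all measured members. Igtp and Irgm1 had differences of 0.12 and -0.10.

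Of the ADP-ribosylation and TRIM genes, Parp9, Parp14 and Dtx3l, whose products act as a complex or in the same pathway, had differences of 0.17, -0.12 and 0.22, and the TRIM genes Trim25 and Trim30a of -0.11 and -0.08. Ifi27, a small membrane protein and one of the most abundant members, stood at 97.3, 92.01 and 102 FPKM in untreated and 93.8, 79.0 and 92.6 FPKM in bezafibrate libraries. Lgals3bp, a secreted galectin-binding protein, stood at 42.8, 29.8 and 33.9 FPKM in untreated and 22.0, 29.8 and 33.6 FPKM in bezafibrate libraries, with bezafibrate F_1 the lowest; the difference was -0.31 (SE 0.203), and -0.15 without that library. Ifi44, Rtp4 and Xaf1 had differences of -0.20, -0.02 and -0.07.

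**Figure D3:**
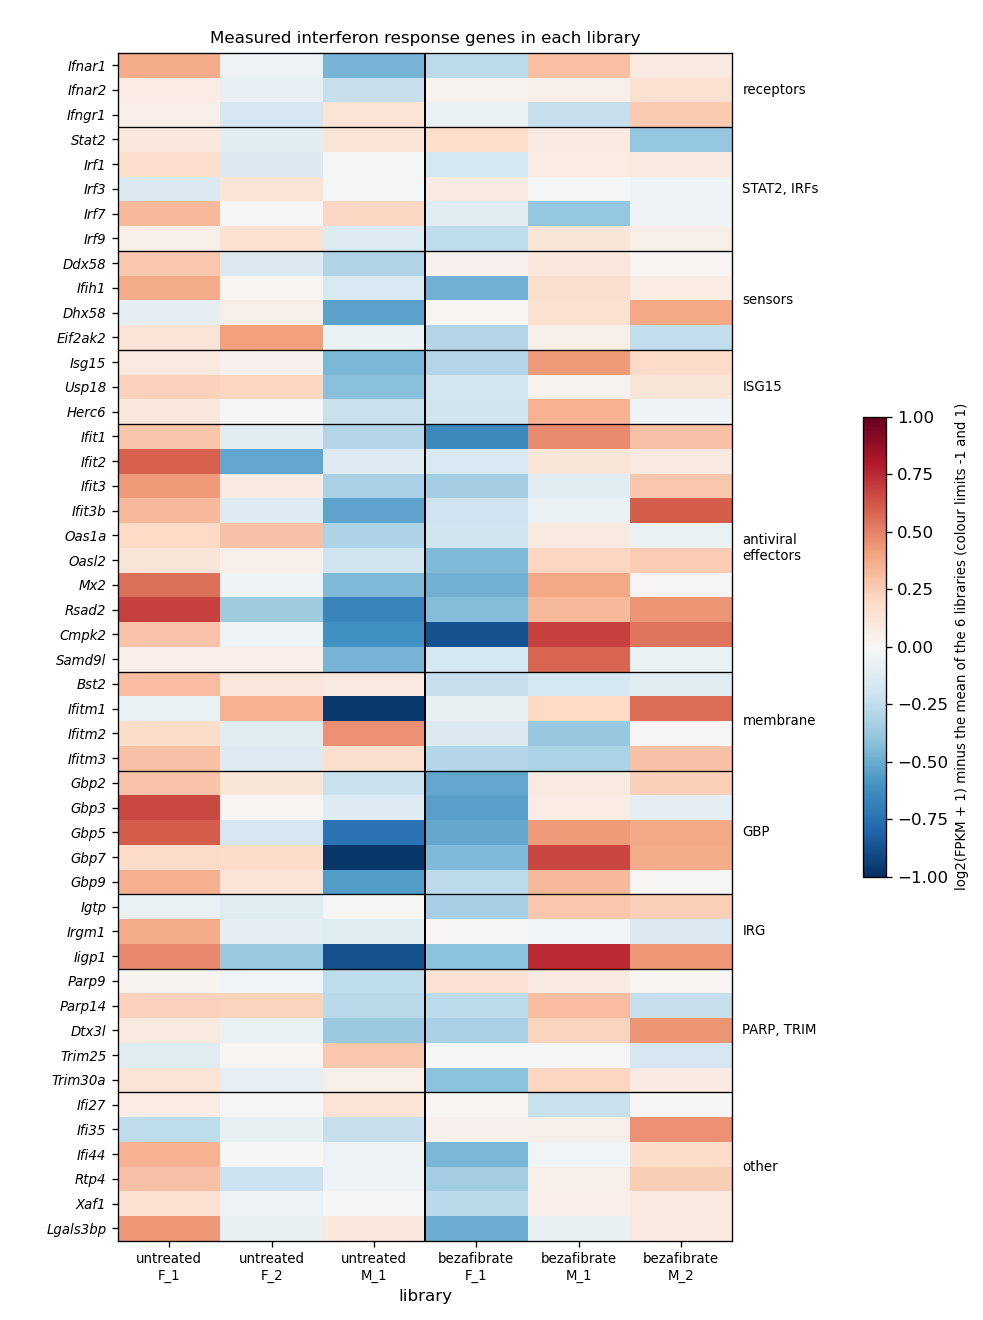
Level of each measured member in each library as log2(FPKM + 1) minus its mean over the 6 libraries, grouped by role, with colour limits of -1 and 1. Blue columns at untreated M_1 and bezafibrate F_1 mark that these libraries were each the lowest of their group for 29 of 48 members. Over all genes this held for 20.0%.

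Libraries of the same chow differed in the members' level. Untreated M_1 and bezafibrate F_1 were each the lowest of their group for 29 of 48 members (60.4%), against 20.0% of all genes. The mean centred level of the 48 members was 0.22, -0.02 and -0.23 in the untreated and -0.25, 0.14 and 0.13 in the bezafibrate libraries on the log2 scale, while that of all genes stayed between -0.02 and 0.01. The swing was widest in the guanylate-binding proteins, at 0.42, 0.06 and -0.52 in untreated and -0.45, 0.32 and 0.18 in bezafibrate libraries. The antiviral effectors followed the same order of libraries for the extremes, from 0.35 in untreated F_1 down to -0.40 for untreated M_1 and -0.39 for bezafibrate F_1. The transcription factors stayed within -0.06 and 0.10.

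**Figure D4:**
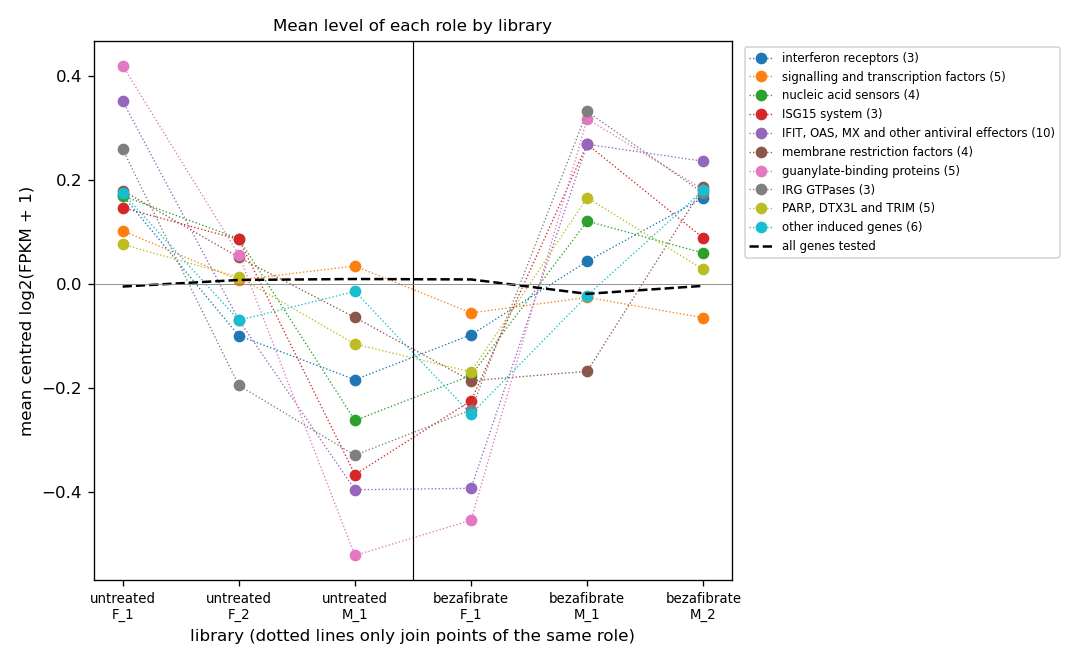
Mean centred log2(FPKM + 1) of the measured members of each role in each library, with the mean of all tested genes dashed. Guanylate-binding proteins and antiviral effectors are lowest in untreated M_1 and bezafibrate F_1, whereas signalling and transcription factors stay near 0.

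The members were not called by sex alone. The male minus female contrast, with treatment as a covariate, called 0 of 48 members by limma (adjusted p = 0.9999 for each) and placed 0 of 48 under an unadjusted p of 0.05, against 0.0266% and 2.94% of all genes. The median difference was 0.01, with 24 members above 0 and 24 below.

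The bezafibrate difference had opposite signs in female and male pools for most members. This comparison was chosen after the values had been seen. Bezafibrate F_1 lay below both untreated female libraries, while both bezafibrate male libraries lay above untreated M_1, for 30 of 48 members (62.5%), against 20.0% of all genes. The reverse held for 1 member, Stat2, against 21.7% of all genes. The median difference of the members was -0.37 between the female pools and 0.32 between the male pools, and the medians of all genes were 0.01 and -0.01. In a limma model of treatment, sex and the product of both, the product term (the difference in males minus that in females) was called for 2 of 48 members (4.17%), Cmpk2 and Gbp7, both higher, against 0.665% of all genes (0.231% higher). At an unadjusted p under 0.05 there were 19 members (39.6%), all with a higher product term, against 21.3% of all genes (9.52% higher and 11.7% lower).

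Cmpk2 (ENSMUSG00000020638) lies at chr12:26469204-26479837 and Gbp7 (ENSMUSG00000040253) at chr3:142530342-142550149. Cmpk2 stood at 12.3 and 9.60 FPKM in the untreated female libraries and 4.96 FPKM in the bezafibrate female library, and at 6.17 FPKM in the untreated male library against 16.5 and 14.8 FPKM in the bezafibrate male libraries. Its product term was 2.20 (SE 0.306, limma adjusted p = 0.0476). Gbp7 stood at 9.59 and 9.52 FPKM in untreated females, 5.83 FPKM in the bezafibrate female, 3.73 FPKM in the untreated male and 13.7 and 10.96 FPKM in bezafibrate males. Its product term was 2.12 (SE 0.295, limma adjusted p = 0.0476), and 11.3% of its 75-base windows are shared with Gm43802. For both genes no library went against this pattern, as holds by definition for every member counted with it. Iigp1 (1.93), Gbp5 (1.87) and Rsad2 (1.65) followed, none of them called. The calls of Cmpk2 and Gbp7 were lost without untreated F_1, without bezafibrate M_1, without bezafibrate M_2 and with quantile normalisation, where the adjusted p of Cmpk2 was 0.0527, 0.180, 0.159 and 0.0594. Limma-voom on recovered reads called 9 members, with 7.54% of all genes.

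**Figure D5:**
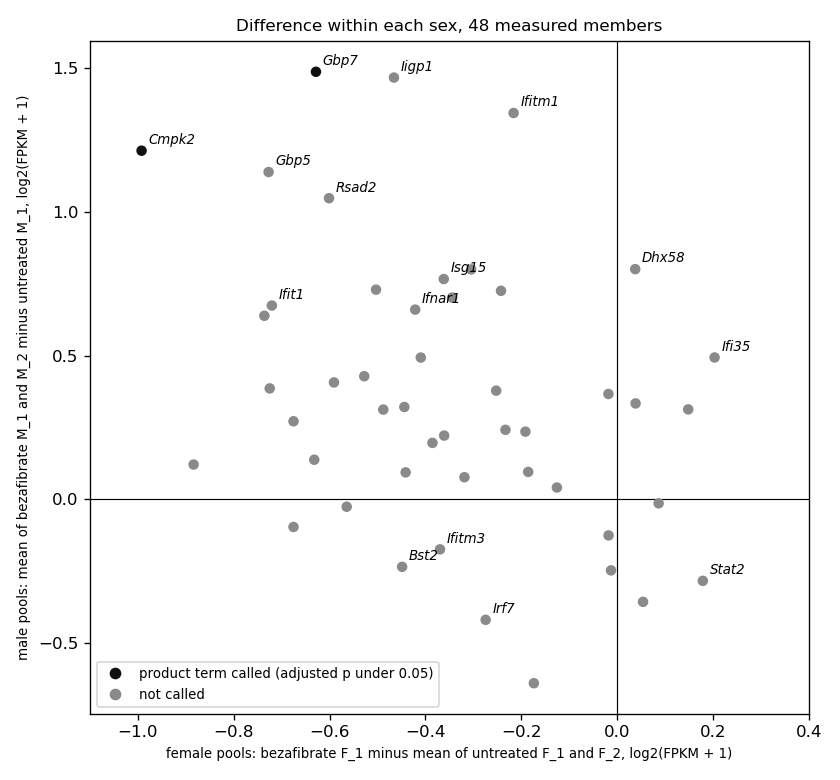
Bezafibrate minus untreated difference of each measured member in log2(FPKM + 1), with female pools on the x axis and male pools on the y axis. Most points, among them Cmpk2 and Gbp7, lie in the upper left, lower with bezafibrate in the female pools and higher in the male pools, with Stat2 at the lower right.

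The untreated male and the bezafibrate female cells of this design hold 1 library each, and these are the libraries that stood apart on the first principal component. The SE and p of the product term come from the spread within the untreated female and bezafibrate male cells and from limma's pooling across genes. They hold no spread between pools of the untreated male or bezafibrate female cells. A difference between the sexes in the response and a difference of untreated M_1 and bezafibrate F_1 cannot be told apart. The summed endothelial markers were highest in the same libraries, 11321 FPKM for untreated M_1 and 10842 FPKM for bezafibrate F_1, against 7800 and 9769 FPKM in the other untreated and 6909 and 8034 FPKM in the other bezafibrate libraries. The markers did not move together. Slc2a1, the glucose transporter GLUT1, gave 5752 FPKM of the sum in untreated M_1 and was highest in both of these libraries. So were Pecam1 (222, 248 and 291 FPKM in untreated, 291, 210 and 207 in bezafibrate libraries), Cdh5, Esam (316, 414 and 497, then 453, 305 and 374) and Erg. Cldn5 and Flt1 were highest of their group in bezafibrate F_1 but not in untreated M_1, and Ly6c1 the reverse. The receptors Tie1 (186, 181 and 147 FPKM in untreated F_1, F_2 and M_1), Tek (184, 159 and 124) and Kdr (94.0, 87.7 and 70.8) and the efflux pump Abcb1a (443, 532 and 394) were instead lowest of the untreated libraries in M_1. In the bezafibrate group Tek was lowest in F_1, at 131 FPKM against 171 and 138 FPKM. Tie1 (175 against 171 and 148 FPKM), Kdr (75.1 against 72.8 and 60.3) and Abcb1a (481 against 439 and 351) were highest in F_1. The recovered reads divided by the library size used for scaling were 1.09 in untreated M_1 and 1.06 in bezafibrate F_1. They were 0.888 to 1.03 in the other 4 libraries. The microglial sum went the other way between them, at 37.8 FPKM for untreated M_1, the highest, and 23.9 FPKM for bezafibrate F_1, the lowest. The part of these measures in the members' levels was not tested. Rescaling to TPM moved the median product term of all genes from -0.01 to 0.31 and that of the members from 0.70 to 1.17. On that scale 33 of 48 members (68.8%) and 30.9% of all genes had bezafibrate F_1 below both untreated female libraries and both bezafibrate males above untreated M_1.

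The product term was above 0 for 41 of 48 members (85.4%) and for 49.1% of all genes. Such counts are not of independent observations, since many members varied together over the same 6 libraries. Mx2 had a Pearson r above 0.7 with 27 of the 47 other measured members, Gbp2 with 24 and Trim25 with 0. By role, it was above 0 for 10 of 10 antiviral effectors (median 1.05), 5 of 5 guanylate-binding proteins (1.23) and 3 of 3 genes of the ISG15 system (0.90). The transcription factors had a median of -0.10, with 2 of 5 above 0. Measured members with an ISRE core in the promoter window had a median product term of 0.86, with 18 of 20 above 0, and those matched without a core 0.58, with 15 of 19 above 0. Their median treatment differences were -0.09 and 0.02. Cmpk2, with the highest product term, held no ISRE core in its window, and Gbp7 held the core printed above.

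Other genes of the pathway were read from a separate list of 88 genes, of which 61 were measured. Limma called 0 of the 61 for treatment, sex or the product term, with smallest adjusted p of 0.999, 0.9999 and 0.0602, and 4, 2 and 20 of them lay under an unadjusted p of 0.05, against 4.19%, 2.94% and 21.3% of all genes. The 20 genes of the product term were 16 above 0 and 4 below it (Irf5, Ptpn11, Socs3 and Ticam1). Of all genes, 9.52% lay under that p above 0 and 11.7% below it. Of the ligands, Ifnb1, Ifna2, Ifna4, Ifng, Ifnl2, Ifnl3 and Ifne were listed at 0 in every library, and Ifnk at 0.0669 FPKM in untreated M_1 and at 0 elsewhere. Jak1 and Tyk2, kinases of the IFNAR receptor, had treatment differences of -0.04 and 0.24.

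The 4 genes of that list under an unadjusted p of 0.05 for treatment were Apobec3 and Trim21, higher, and Isg20 and Ifi30, lower. Apobec3, a cytidine deaminase that restricts retroviruses, stood at 1.58, 2.20 and 1.504 FPKM in untreated and 2.32, 3.79 and 3.22 FPKM in bezafibrate libraries (0.57, SE 0.198). Isg20, an exonuclease, stood at 4.65, 4.83 and 5.10 FPKM in untreated and 3.91, 2.91 and 1.83 FPKM in bezafibrate libraries (-0.63, SE 0.212). Their groups did not overlap, and the adjusted p was 0.999 for each. The within-sex pattern of the members was present in 23 of the 61 genes, against 20.0% of all genes, and the reverse pattern in 9 of them, Jak1, Socs3 and Irf5 included, against 21.7% of all genes. The 23 held Gbp4, Oas2 and Tnfsf10, the ligand TRAIL, whose product term of 2.503 was the highest of the list.

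Over the 6 libraries the genes closest to Ifitm3, the most abundant member, were Gsta4 (Pearson r 0.991), Ackr3 (0.986) and Rabepk (0.980). Those closest to Bst2, the member with the smallest unadjusted p, were Scarb2 (0.971), Slc12a2 (0.967) and Tspan13 (0.967). None of these 6 genes is a member or on the pathway list. They are the highest of 11277 correlations over the same 6 libraries, and are given as a description.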

How the data were processed

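The deposited table holds FPKM as made by the authors for 6 libraries. Per the labels' protocols, cDNA was made with SMART-Seq HT, libraries with Nextera XT, and single-end reads of 75 bases were de-duplicated and mapped with Salmon. The submitters' processing notes name GRCm38. The sources used here do not give the annotation, strand setting and normalisation. The untreated male sample is titled M_1, but its column is headed M_2; the column was assigned through the sample's description, and the library is called M_1 throughout. Positions of 50 of 51 members matched GENCODE vM21.

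In each library, FPKM times gene length was a whole multiple of a step fitted to that library for 100% of non-zero values (tolerance 0.01). The multiples were taken as recovered reads, which gave the depth. Genes with FPKM of at least 1 in 3 or more libraries were fitted with limma 3.58.1 (R 4.3.3; eBayes with trend) on log2(FPKM + 1), a scale that understates changes of low genes. Tests were two-sided, adjusted by Benjamini-Hochberg over all genes, and called under 0.05. Treatment had no covariate, since the labels state that the sexes were combined. Replicates are pools of separate animals. The treatment fit was tested on simulated data with independent genes and libraries. That simulation held no sex, product term or deviating library, so it does not bear on the product term. Alternatives changed the pseudocount, filter, scaling, model, covariates and libraries. The members and lists were chosen with earlier results of these data known. All 6 values are given for members without overlap, the 10 with the smallest p, the 10 most abundant and 8 chosen by name; Cmpk2, Gbp7, Ifnar1 and the pathway genes with values were named after these were seen.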

Additional observations from a re-analysis of the deposited data

Results flagged for a closer look

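For 31 members the bezafibrate difference ran one way in every female library and the opposite way in every male library. In 30 of 48 members (62.5%) bezafibrate was lower in the female and higher in the males, against 20.0% of all genes. The reverse held for Stat2 alone (2.08%), against 21.7% of all genes. The product term of the limma fit, the log2 difference in male pools minus that in female pools, is given for each of the 31. Of these, only Cmpk2 (2.20) and Gbp7 (2.12) were called, with 75 of 11277 genes called in all; for the other 29 the product term was tested and did not pass the threshold.

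Among the guanylate-binding proteins and IRG GTPases, the values were 1.11 for Gbp2, 1.00 for Gbp3, 1.87 for Gbp5, 1.23 for Gbp9, 1.93 for Iigp1 and 0.475 for Igtp. Among the antiviral effectors they were 1.39 for Ifit1, 0.997 for Ifit3, 1.10 for Ifit3b, 0.765 for Oas1a, 0.956 for Oasl2, 1.37 for Mx2, 1.65 for Rsad2 and 0.967 for Samd9l. The ISG15 system gave 1.13 for Isg15, 0.903 for Usp18 and 0.630 for Herc6.

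Receptor, sensor and membrane genes gave 1.08 for Ifnar1, 0.947 for Ifih1 and 1.56 for Ifitm1. The transcription factors gave 0.582 for Irf9, 0.281 for Irf1 and -0.463 for Stat2, which was higher in the bezafibrate female and lower in the bezafibrate males. The remaining values were 0.800 for Parp14, 1.05 for Dtx3l, 0.535 for Trim30a, 0.770 for Ifi44, 0.581 for Rtp4 and 0.395 for Xaf1. Each value rests on 1 untreated male and 1 bezafibrate female library.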

How the results depend on the processing

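No member was called for treatment in any of 17 alternative fits or for sex in any of 14, and the members' median treatment difference stayed between -0.07 and 0.12. The number of all genes called for treatment was 1, and became 0 with limma-voom, with the replicate block and when untreated M_1 and bezafibrate F_1 were both left out, and 0 to 3 with a library left out (3 without bezafibrate F_1). With the replicate block, which pairs F_1 with F_1 and M_1 with M_1, 0 members were called and their median was -0.05. These pairs share a sex as well as a number, but they deviated in opposite directions (r = -0.363 and -0.299 across genes), and the numbers were not taken as pairing. The table heads the column of untreated M_1 with M_2, and its r with bezafibrate M_2 was -0.156. The sign of the treatment difference held in every alternative for 20 of 48 members. It changed for 12 without bezafibrate F_1, 11 without untreated M_1 and 10 with TPM.

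The product term called 2 members (0.665% of all genes), 0 with quantile normalisation (0.00887%), 9 with limma-voom (7.54%), and 0 to 6 with a library left out (6 without untreated F_2, where 4.98% of all genes were called). These alternatives were chosen after seeing the data. The product term cannot be estimated without untreated M_1 or bezafibrate F_1, nor the sex contrast without both. The cause of these changes was not tested. With 3 libraries a group, the median SE of a member's log2 difference was 0.21.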
